A study of Mus musculus with 34 samples.

Results

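Antibody RNA was followed in the stromal vascular fraction (SVF) of visceral fat through 10 genes, the 8 constant genes of the heavy chain locus (Ighm, Ighd, Ighg3, Ighg1, Ighg2b, Ighg2c, Ighe and Igha), the constant gene of the kappa light chain (Igkc) and the gene of the joining chain (Jchain). The genes were chosen by name, and all 10 were found among the 32098 genes listed in both expression tables. The SVF is what remains of fat after collagenase digestion once the floating adipocytes are removed, and it mixes leukocytes, fibroblasts, progenitors, endothelial cells and mesothelial cells. The mice were C57BL/6J males that began a diet at 6 weeks of age and stayed on it for 8, 20 or 34 weeks. One diet was a high fat diet (HFD) with 60% of its kcal from fat, and the other was a control diet (CHOW), for which the study used a pair of formulations without saying which mice ate which. The CHOW groups held 4 libraries at 8 weeks, 5 at 20 and 7 at 34, and each of the HFD groups held 6. Lymph nodes were left out when the fat was dissected, and red blood cells were lysed. The labels do not say whether each library is 1 animal, so p-values measure the spread between libraries, which may be technical.

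An antibody is built from a pair of heavy chains and a pair of light chains, and the heavy chain constant gene in use sets its class. A naive B cell splices 1 rearranged variable exon to Ighm and Ighd and so makes IgM and IgD. Class switching then cuts out the DNA between that exon and a downstream constant gene, which puts the cell on IgG, IgE or IgA. Most mouse antibodies carry a kappa light chain, and the rest a lambda chain. When a B cell becomes a plasma cell, its immunoglobulin transcripts rise steeply, while surface genes such as Cd79a, the signalling partner of the B cell receptor, do not follow. J chain, made by plasma cells, links IgM pentamers and IgA dimers. Visceral fat and the serous cavities hold B-1 cells, which make much of the body's natural IgM, alongside conventional B cells.

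The 8 heavy chain genes lie on the minus strand of chromosome 12 (GRCm38, positions from GENCODE M21), in the order in which they are named above, from Ighm at chr12:113418558-113422730 to Igha at chr12:113254830-113260236. Igkc lies on the plus strand of chromosome 6 at chr6:70726435-70726966, and Jchain on the minus strand of chromosome 5 at chr5:88519809-88527891. The IgG genes resemble each other. Their first exons are all 291 bases long and were 78.4% to 88.3% identical between pairs, and 1.72% (Ighg1) to 14.98% (Ighg2c) of the 31-base words in the annotated transcripts of an IgG gene also occurred in another IgG gene. Ighm, Ighe, Igha, Igkc and Jchain shared no such word with any other annotated transcript of the release, and Ighd shared 2 with genes outside the locus. The hinge exon differs between the IgG genes in length and in cysteine codons, and it is shown for that reason (GENCODE M21 transcripts, minus strand, chr12:113360529-113360576 for Ighg3, chr12:113329844-113329882 for Ighg1, chr12:113307261-113307326 for Ighg2b and chr12:113288263-113288325 for Ighg2c). Capitals mark in-frame cysteine codons, which can form the disulfide bonds between both heavy chains.
Ighg3: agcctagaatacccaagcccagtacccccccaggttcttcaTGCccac
Ighg1: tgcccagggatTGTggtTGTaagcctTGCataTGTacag
Ighg2b: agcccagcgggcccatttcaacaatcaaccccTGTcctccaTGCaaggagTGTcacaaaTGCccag
Ighg2c: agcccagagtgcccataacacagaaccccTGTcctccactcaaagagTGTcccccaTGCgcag
The hinge exon ran from 39 bases in Ighg1 to 66 in Ighg2b and held 1 cysteine codon in Ighg3, 3 in Ighg2c and 4 in Ighg1 and Ighg2b. IgM and IgA share a different feature, the secretory tail, which is read only when the transcript ends before the membrane exons and whose last cysteine binds J chain. It is shown because Ighm and Jchain moved together in these libraries (chr12:113420867-113420928 for Ighm and chr12:113258768-113258829 for Igha, minus strand, stop codon included, with the cysteine codon in capitals).
Ighm: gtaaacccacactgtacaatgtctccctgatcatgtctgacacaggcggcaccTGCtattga
Igha: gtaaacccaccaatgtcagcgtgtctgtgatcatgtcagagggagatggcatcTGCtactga
Both tails were 62 bases long, and 43 of those bases (69.4%) were identical. The deposited values are 1 number per gene, so secreted and membrane transcripts of a constant gene cannot be told apart, and neither can transcripts that lack a variable exon.

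Values are TPM (transcripts in every 1000000, a length-corrected share of a library) and keep no read depth, so the depth behind a value is unknown. The tables of 8 and 20 weeks (21 libraries) and of 34 weeks (13 libraries) were made separately, so levels are set beside each other across them but not tested. Macrophage markers (5 genes) summed to 3112 TPM or more in every library. Genes of other tissues, or of the adipocytes that the SVF leaves out, stood out in 9 libraries. Below, all 9 are called libraries with RNA of other tissues. HFD 8 week replicate 3 held seminal vesicle RNA (Svs5 at 54995 TPM). Prm1, a gene of sperm cells, was at 715, 587 and 3096 TPM in replicates 3, 4 and 5 of the HFD group at 20 weeks and at 1242 and 1340 TPM in replicates 1 and 2 at 34 weeks, and CHOW replicates 5, 6 and 7 at 34 weeks held 1027, 5439 and 1486 TPM of Adipoq, an adipocyte gene. In the other libraries each of these genes stayed below 500 TPM. The 5 germ cell genes together still reached 1048 TPM in the HFD group at 8 weeks. Calls of immunoglobulin and B cell genes that were lost without these 9 libraries, a set chosen after seeing the data, are named beside them. Erythroid genes (hemoglobin genes and Alas2 of heme synthesis) summed to 7100 to 267887 TPM despite the lysis step. The 15 B cell identity genes summed to 44.04 to 181 TPM. Of 6 stromal and venule genes of lymph nodes, 5 were listed, and they summed to 3.05 to 28.5 TPM. In bulk RNA, fewer cells of a type and less RNA per cell cannot be told apart.

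Igkc was the most abundant of the 10 genes in 33 of 34 libraries, and Ighm the most abundant heavy chain gene in all 34. Igkc was at 1106, 1108, 1104 and 783 TPM in the 4 CHOW libraries of 8 weeks, and at 1988, 1809, 3766, 8445 and 4649 TPM in the 5 CHOW libraries of 20 weeks. All 5 libraries of 20 weeks lay above all 4 of 8 weeks. On HFD, the lowest, median and highest values were 603, 946 and 2557 TPM at 8 weeks, and 847, 1658 and 9869 TPM at 20 weeks. At 34 weeks they were 746, 1986 and 3024 TPM on CHOW, and 1160.3, 2594 and 8697 TPM on HFD. These groups overlapped, and single libraries set the upper ends. HFD 20 week replicate 3 (9869 TPM) was far above the next library of its group (2954 TPM), and HFD 34 week replicates 3 and 4 (7645 and 8697 TPM) stood apart from the other 4. Group means of Igkc ran from HFD at 34 weeks (4139.6 TPM) and CHOW at 20 weeks (4131.5 TPM) down to HFD (1197 TPM) and CHOW (1025 TPM) at 8 weeks, with neighbouring groups overlapping at each step.

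**Figure D1:**
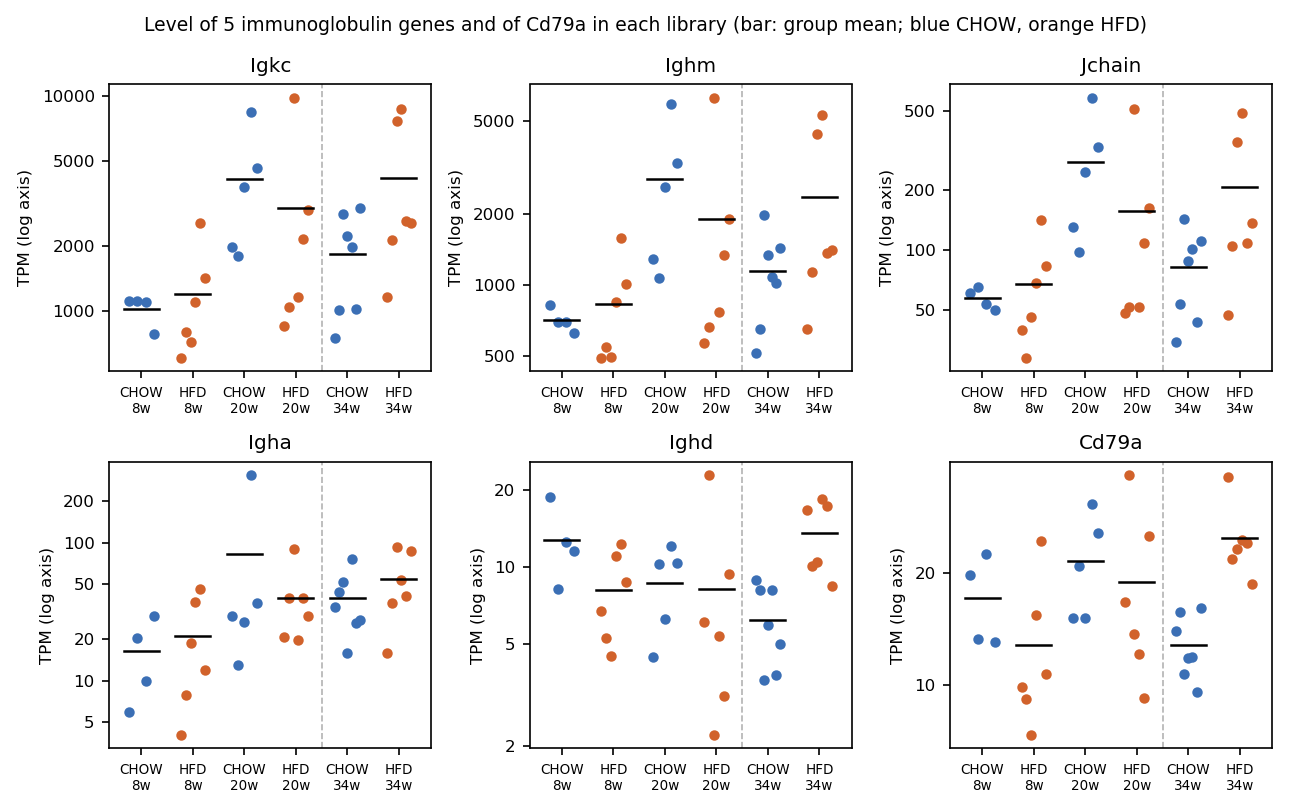
TPM of Igkc, Ighm, Jchain, Igha, Ighd and the B cell receptor gene Cd79a (log axes) in each of the 34 libraries, by diet and weeks on the diet. Each point is a library in order of its replicate number, bars are group means, and the dashed line separates the tables. Igkc, Ighm and Jchain are high in the same libraries (CHOW 20 week replicate 4, HFD 20 week replicate 3, HFD 34 week replicates 3 and 4), where Cd79a lies between 13.7 and 30.7 TPM.

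Ighm and Jchain followed Igkc from library to library. Jchain was at 60.3, 65.3, 53.2 and 49.9 TPM in the CHOW libraries of 8 weeks and at 131, 97.2, 248, 588 and 331 TPM in those of 20 weeks, again without overlap. Across the 21 libraries of 8 and 20 weeks, log2(TPM + 1) of Igkc correlated with that of Ighm at Pearson r = 0.994 and Spearman rho = 0.979, and with that of Jchain at r = 0.982 and rho = 0.966. Each had a permutation p of 2e-05, the smallest that 100000 resamples can give, and an adjusted p of at most 4.8e-05 over the 12 relations computed. Without CHOW 20 week replicate 4 and HFD 20 week replicate 3, the libraries with the most extreme Igkc, r was 0.989 for Ighm and 0.969 for Jchain. The 13 libraries of 34 weeks gave r = 0.967 and rho = 0.973 for Ighm, and r = 0.985 and rho = 0.940 for Jchain, with the same permutation p. The ratio of Ighm to Igkc TPM stayed between 0.477 and 1.004 while Igkc itself ranged 16.4-fold. Genes of a library share its total, which links their TPM.

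Genes of antibody-secreting cells and of resting B cells were then set beside the family. Igkc correlated with Mzb1, a chaperone of antibody-secreting cells, at r = 0.929 and rho = 0.849 across 21 libraries (permutation p 2e-05 for both). With Cd79a it gave r = 0.415 (permutation p 0.0644, adjusted p 0.0858) and rho = 0.430 (permutation p 0.0524, adjusted p 0.0698). At 34 weeks Igkc and Cd79a gave r = 0.310 (permutation p 0.308) and rho = 0.363 (permutation p 0.227), and r was 0.0207 without HFD replicates 3 and 4. Not all secretory genes went with Igkc as Mzb1 did. Xbp1, the transcription factor of the secretory programme, gave rho with Igkc of 0.491 at 8 and 20 weeks and −0.0165 at 34 weeks. Ms4a1, a B cell surface gene, gave 0.482 and 0.132. Ighd, the constant gene that resting B cells co-express with Ighm, was related to Cd79a. It correlated with Cd79a at r = 0.704 (permutation p 0.00032, adjusted p 0.00048) and rho = 0.70 (permutation p 0.00054) at 8 and 20 weeks, and at r = 0.865 (permutation p 0.00024, adjusted p 0.000411) and rho = 0.901 (permutation p 0.00016) at 34 weeks, and r was 0.695 and 0.846 without the 2 libraries farthest from the median. With Igkc, Ighd gave r = −0.18 (permutation p 0.434) at 8 and 20 weeks and 0.266 (permutation p 0.381) at 34 weeks. Without the 2 libraries farthest from the median of Ighd, r was 0.175 and 0.121. Within the 4 groups of 6 or more libraries, r ran from 0.573 to 0.917 for Ighd with Cd79a and from 0.911 to 1.000 for Igkc with Ighm. It ran from −0.393 to 0.856 for Igkc with Cd79a and from −0.580 to 0.801 for Ighd with Igkc. These pairs were chosen after their values had been seen, and differences between correlations were not tested.

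**Figure D2:**
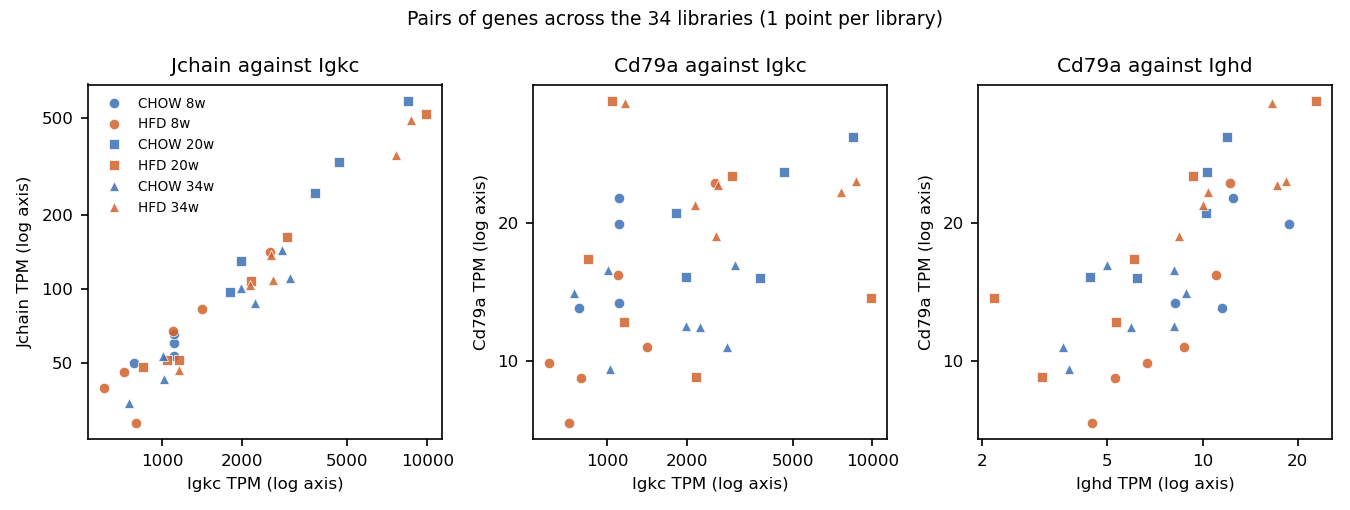
Jchain against Igkc, Cd79a against Igkc, and Cd79a against Ighd in TPM (log axes), 1 point per library, with circles for 8, squares for 20 and triangles for 34 weeks, blue for CHOW and orange for HFD. Jchain rises with Igkc along a single line (r = 0.982 and 0.985), the points of Cd79a against Igkc scatter widely (r = 0.415 and 0.310), and Cd79a rises with Ighd (r = 0.704 and 0.865).

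Outside the immunoglobulin genes, Mzb1, Pou2af1 and Mpp5 ranked most like Igkc over the 21 libraries, with Spearman rho of 0.849, 0.827 and 0.816. Pou2af1 is a coactivator of immunoglobulin gene transcription in B cells, and Mpp5 a scaffold protein of cell junctions. The 13 libraries of 34 weeks, which had no part in that choice, gave 0.929 for Mzb1, 0.852 for Pou2af1 and 0.0824 for Mpp5. The same 3 genes ranked highest for Jchain (0.839, 0.821 and 0.818), with 0.923, 0.758 and 0.269 at 34 weeks. The high Igkc libraries also differed in their variable segments. Igkv14-126 was the highest kappa segment in 25 of 34 libraries and took 79.5% of the summed kappa segment TPM in HFD 20 week replicate 3, where Ighv11-2 took 72.8% of the heavy chain sum, whereas CHOW 20 week replicate 4 was led by Igkv8-16 (47.2%) and Ighv9-3 (55.0%). Ighv11-2 and Igkv14-126 are known as a recurrent pair in B-1 cells that bind phosphatidylcholine.

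Most heavy chain RNA was IgM in every group. The Ighm share of the summed TPM of the 8 heavy chain genes was 93.02% ± 3.06 (SD, n = 4) on CHOW and 95.2% ± 2.60 (n = 6) on HFD at 8 weeks, 89.5% ± 7.20 (n = 5) and 91.9% ± 5.21 (n = 6) at 20 weeks, and 91.5% ± 3.57 (n = 7) and 92.0% ± 3.303 (n = 6) at 34 weeks. CHOW 20 week replicate 4 had the lowest share (80.7%) and HFD 20 week replicate 3 the highest (98.2%), and these are the libraries with the most Ighm. The 4 IgG genes together took 3.07% ± 3.41 and 1.58% ± 1.92 at 8 weeks, 8.23% ± 6.33 and 4.52% ± 3.37 at 20 weeks, and 4.09% ± 1.90 and 4.35% ± 1.85 at 34 weeks, on CHOW and HFD in turn. Igha, the IgA gene, took between 0.697% and 6.15% of a library and exceeded the IgG sum in 11 of 34 libraries. None of 15 share comparisons passed an exact two-sided permutation test after adjustment over 20 tests. The smallest p was that of the IgG share on HFD, which was 2.95 percentage points more at 20 than at 8 weeks (exact permutation p 0.0844, adjusted p 0.563). Light chains were mainly kappa, at 82.4% to 97.9% of the summed TPM of Igkc and the 3 lambda constant genes.

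**Figure D3:**
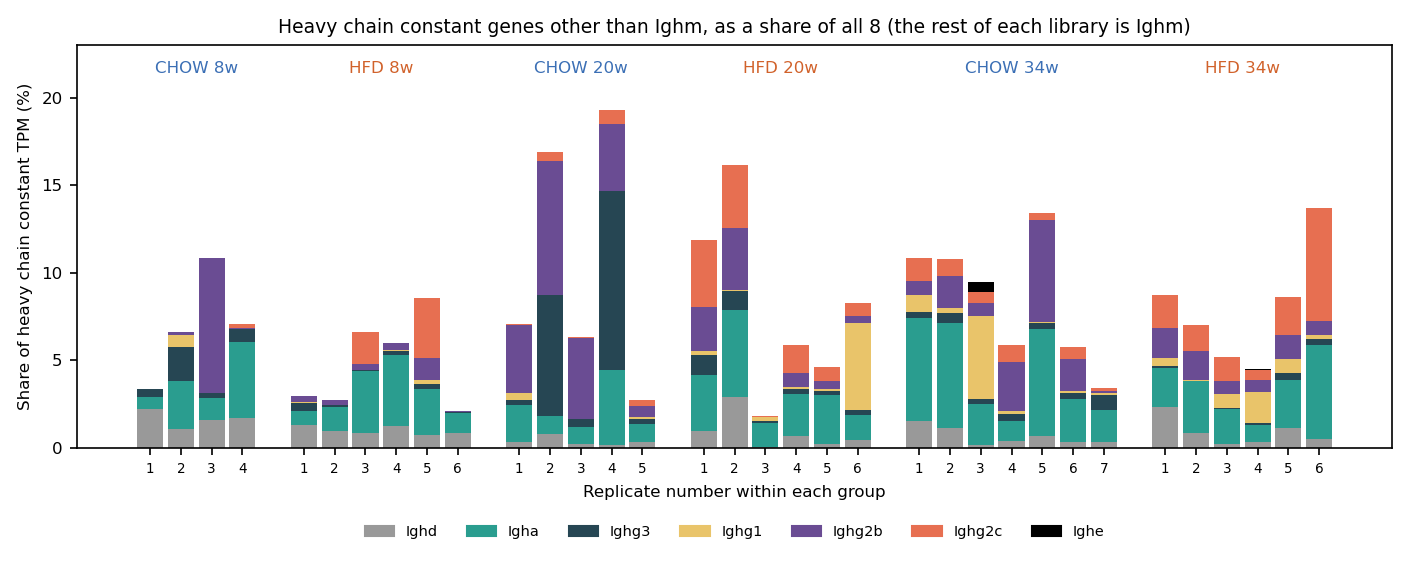
Share of the summed heavy chain constant TPM (%) taken by each gene other than Ighm, as stacked bars, 1 bar per library, numbered by replicate within each group. The tallest bar is CHOW 20 week replicate 4, where Ighg3 takes 10.2%, and the shortest is HFD 20 week replicate 3, where Ighm takes 98.2%. The leading IgG gene changes from library to library.

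The IgG genes were at or near 0 in some libraries and reached 746 TPM (Ighg3) in others. Ighg2b was at 53.8, 98.7, 128, 280.0 and 22.4 TPM in the CHOW libraries of 20 weeks, against a lowest, median and highest value of 2.05, 7.94 and 28.1 TPM on HFD. The groups overlapped only in that CHOW replicate 5 lay below HFD replicate 2. In the CHOW libraries of 8 weeks Ighg2b was listed at 0, 1.28, 60.1 and 0.142 TPM, so that replicate 3 alone was high. Ighg3 was at 4.08, 89.2, 13.8, 746 and 8.65 TPM in the CHOW libraries of 20 weeks, while HFD libraries lay between 2.31 and 8.32 TPM. The groups overlapped, and the CHOW mean rested on replicates 2 and 4. Ighg1 was at 2 TPM or less as a group median at 8 and 20 weeks and was listed at 0 in 8 of those 21 libraries, but reached 103 TPM in replicate 6 of the HFD group at 20 weeks. At 34 weeks it reached 104 TPM in CHOW replicate 3 and 98.5 TPM in HFD replicate 4. Libraries with high Ighg1 thus came from both diets and from 20 and 34 weeks.

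Ighg2c, the IgG2c gene, was not called at 34 weeks (adjusted p 0.0749), although the diets overlapped by only 1 HFD library. It was at 13.4, 18.5, 61.7, 30.8, 32.2 and 105.5 TPM in the 6 HFD libraries, against a lowest, median and highest value of 2.88, 7.34 and 14.0 TPM in the 7 CHOW libraries. HFD replicate 1 alone lay within the CHOW range. At 8 weeks it was listed at 0 in 6 of 10 libraries and reached 59.6 TPM in HFD replicate 5. Ighg2c was the highest IgG gene in 4 of 6 HFD libraries at 20 weeks and in 4 of 6 at 34 weeks. Among CHOW libraries, that gene was Ighg2b in 4 of 5 at 20 weeks and in 4 of 7 at 34 weeks. At 8 weeks the order was another, with Ighg2b highest in 3 and Ighg2c in 2 of 6 HFD libraries, and Ighg3 in 3 of 4 CHOW libraries. These counts were made after the values had been seen, and no test was run on them.

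**Figure D4:**
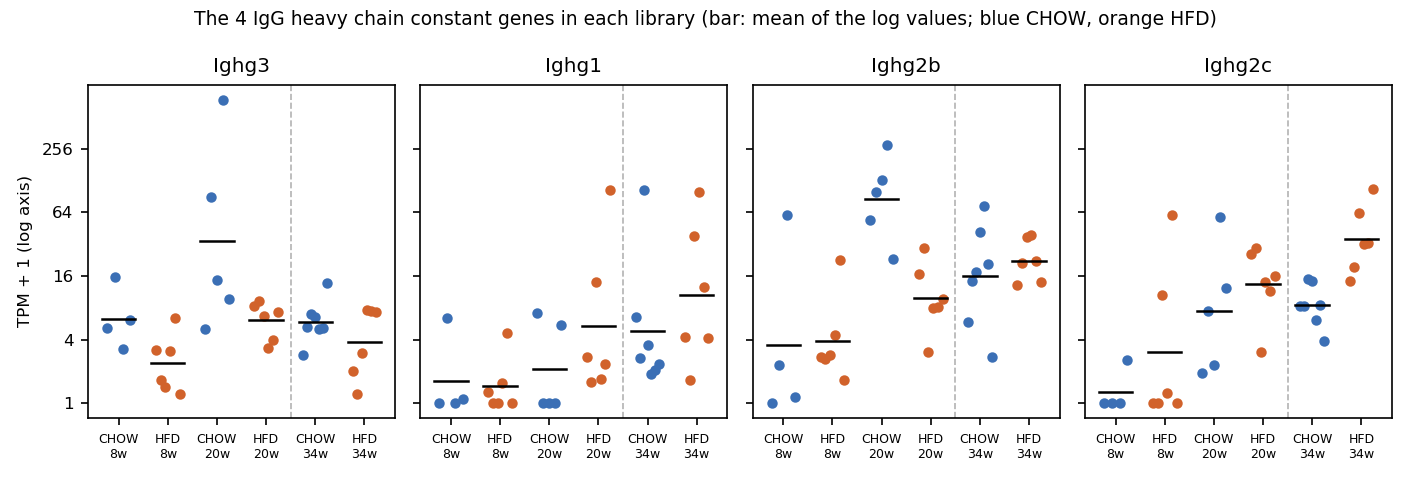
TPM + 1 (log axis) of the 4 IgG constant genes in each library, by diet and weeks, with bars at the mean of the log values. Ighg2b is high on CHOW at 20 weeks (22.4 to 280.0 TPM), and Ighg2c is above the CHOW range at 34 weeks in all but 1 HFD library. The highest Ighg1 values (98.5 to 104 TPM) are 1 library of a group each, though the next HFD library at 34 weeks holds 37.0 TPM.

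Igha was at 5.94, 20.4, 9.98 and 29.3 TPM in the CHOW libraries of 8 weeks and at 29.4, 12.95, 26.5, 310.2 and 36.4 TPM in those of 20 weeks. Apart from CHOW 20 week replicate 4, no library exceeded 92.99 TPM. Ighd ranged from 2.19 to 22.8 TPM over all libraries, with a group mean of 6.20 ± 2.18 TPM (SD, n = 7) on CHOW and 13.5 ± 4.34 (n = 6) on HFD at 34 weeks. The groups overlapped only between CHOW replicate 1 (8.85 TPM) and HFD replicate 6 (8.41 TPM). Ighe, the IgE gene, was listed at 0 in all 21 libraries of 8 and 20 weeks and in 10 of 13 at 34 weeks. Its values above 0 were 12.3 TPM (CHOW replicate 3), 3.41 TPM (HFD replicate 4) and 0.457 TPM (HFD replicate 3), and it did not pass the filter on low values in either table. The other 9 genes passed it in both and were tested in all 6 comparisons. Log2 differences below are on the log2(TPM + 1) scale, from limma, with p-values adjusted over all genes tested and a threshold of 0.05. Differences of genes with libraries near 0 depend on the pseudocount of 1 TPM.

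After 8 weeks, no antibody gene separated HFD from CHOW. None of the 9 genes tested was called, against 0.0238% of all genes. None was without overlap between the diets (2.11% of all genes), and none had an unadjusted p under 0.05 (9.70% of all genes). Igkc differed by 0.05 (SE 0.56, adjusted p 0.996), Jchain by 0.05 (SE 0.58, adjusted p 0.996) and Ighm by 0.09 (SE 0.55, adjusted p 0.994). A change of 2-fold lay within 2 SE of each. The median over the members was 0.05 and over all genes −0.08. HFD replicate 5 held the most Igkc (2557 TPM) and the most Ighg2c of this time.

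After 20 weeks, Ighg2b was lower on HFD than on CHOW by 3.11 (SE 0.90, adjusted p 0.0263). It was the 1 gene called of 9, where 14.3% of all genes were called and 4.99% were called lower, and no member was without overlap (9.19% of all genes). Ighg3, at −2.51 (SE 0.87, adjusted p 0.0578), and Jchain, at −1.14 (SE 0.55, adjusted p 0.161), were below 0 without passing. Igkc was at −0.81 (SE 0.52, adjusted p 0.312) and Ighm at −0.86 (SE 0.52, adjusted p 0.273). The median over the members was −0.81 and over all genes 0.08, and 7 of 9 were below 0. Jchain, Ighg3 and Ighg2b had an unadjusted p under 0.05 (30.5% of all genes). The Ighg2b call was lost without CHOW replicate 3 (adjusted p 0.0653), CHOW replicate 4 (0.0823) or HFD replicate 3 (0.0586), with a pseudocount of 0.1 TPM (0.0656) and with no filter (0.0522). Without the 9 libraries with RNA of other tissues, which leaves 3 HFD libraries at 20 weeks, it was −2.35 (adjusted p 0.225). When the 4 IgG genes were summed to 1 feature, an alternative chosen after seeing the data, the difference was −1.89 (SE 0.89, adjusted p 0.156) and was not called.

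Markers of other cells moved at 20 weeks as well, beside the 14.3% of all genes called and the 4.99% called lower. On HFD, 5 of 5 erythroid genes were called lower (Hba-a1 by 1.77, SE 0.46, adjusted p 0.0151), and their sum was 12622 to 30448 TPM against 27334 to 130027 on CHOW. Of 5 macrophage genes, 3 were called higher (Cd68 by 1.43, SE 0.26, adjusted p 0.00131), with a sum of 5623 to 10997 TPM against 3112 to 7940. Of 5 adipocyte genes, 3 were called lower and 1 higher (sums of 111 to 218 TPM against 190 to 348), and 2 of 8 T cell genes were called lower (34.6 to 51.4 TPM against 44.1 to 81.4). Several of these calls were lost with 1 library left out. Trac and Cd4 of T cells held in 4 and 6 of 11 such fits. Lyz2 of macrophages held in 5, Alas2 in 4 and Lep of adipocytes in 5, while Hba-a1 held in 10. Cd68, Adgre1, Cidec and Adipoq held in all 11. Trac, Cd4 and Alas2 were also lost without the 9 libraries with RNA of other tissues. Prm1 was above 500 TPM in 3 of the 6 HFD libraries and in none of the 5 CHOW libraries. None of the lists counted here summed to 0 in any library. Their part in the immunoglobulin values was not tested. Cd79a differed by −0.27 (SE 0.31, adjusted p 0.607) and Ms4a1, which encodes CD20, by −0.24 (SE 0.36, adjusted p 0.707).

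After 34 weeks, Ighg2c was the member nearest to a call. It was 2.07 higher on HFD than on CHOW (SE 0.44, adjusted p 0.0749), and Ighd was 1.01 higher (SE 0.24, adjusted p 0.126). None of 9 was called (0.243% of all genes) or without overlap (0.937% of all genes), and 2 had an unadjusted p under 0.05 (13.2% of all genes). Igkc was 0.99 higher (SE 0.48, adjusted p 0.389) and Jchain 1.05 (SE 0.50, adjusted p 0.383), with a median over members of 0.99 against 0.10 over all genes. Cd79a was called, at 0.89 higher (SE 0.16, adjusted p 0.0461), with 18.7 to 36.5 TPM in the 6 HFD libraries and 9.61 to 16.2 TPM in the 7 CHOW libraries. Its call held in 1 of 9 other settings, sample quality weights, and in 3 of 13 fits with 1 library left out, those without CHOW replicate 2, CHOW replicate 4 or HFD replicate 1 (adjusted p up to 0.146 in the rest). The 15 B cell identity genes together summed to 78.4 to 143 TPM on HFD and 46.6 to 86.6 TPM on CHOW, and their part in the values of Ighg2c and Ighd was not tested. Prm1 was above 500 TPM in 2 HFD libraries and Adipoq above 1000 TPM in 3 CHOW libraries, and without these Ighg2c was at 2.22 (adjusted p 0.0986). Ighg2c was called without CHOW replicate 4 (adjusted p 0.0421), without HFD replicate 1 (0.0301) or with sample quality weights (0.00952).

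On CHOW, Ighg2b was called higher at 20 than at 8 weeks, and the libraries of Igkc, Ighm and Jchain were all higher at 20 weeks. The libraries of Ighg2b itself overlapped between the times, with CHOW 8 week replicate 3 at 60.1 TPM. Ighg2b was 4.59 higher (SE 0.99, adjusted p 0.0405) and was the 1 called of 9, where 0.613% of all genes were called and 0.458% were called higher. Jchain was 1.98 higher (SE 0.60, adjusted p 0.139), Igkc 1.79 (SE 0.58, adjusted p 0.169) and Ighm 1.72 (SE 0.57, adjusted p 0.185). These 3 did not overlap between the times. Of all genes, 2.61% were higher without overlap and 6.28% were without overlap in either direction. Among the members, 6 of 9 had an unadjusted p under 0.05 (12.5% of all genes). Ighm and Jchain followed Igkc closely over the libraries of 8 and 20 weeks (r = 0.994 and 0.982). The members counted here are therefore not independent of each other. The median over the members was 1.79 and over all genes −0.09. Ighd was at −0.53 (SE 0.44, adjusted p 0.689) and Cd79a at 0.29 (SE 0.35, adjusted p 0.807). The log2 ratio of Igkc to Cd79a was 7.33 ± 0.69 (SD, n = 5) at 20 weeks and 5.84 ± 0.31 (n = 4) at 8 weeks, with no overlap and an exact permutation p of 0.0159, the smallest this design allows, but an adjusted p of 0.317 over 20 tests. The Ighg2b call was lost without CHOW 8 week replicate 1, 2 or 4 or CHOW 20 week replicate 3 or 4 (adjusted p 0.1002 to 0.180), while without CHOW 8 week replicate 3 the difference was 5.96 (adjusted p 0.00124). It was also lost with a replicate block (0.0828), with no filter (0.0838) and with these groups alone (0.130), and a pseudocount of 0.1 TPM made the difference 6.15. The summed IgG genes were 3.35 higher (SE 0.99, adjusted p 0.128).

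On HFD, no antibody gene was called between 8 and 20 weeks. None of 9 passed (8.78% of all genes), none was without overlap (4.17% of all genes), and Ighg1 (1.91, SE 0.86, adjusted p 0.159) and Ighg2c (2.14, SE 0.95, adjusted p 0.148) had an unadjusted p under 0.05 (27.2% of all genes). Igkc was 0.93 higher (SE 0.50, adjusted p 0.237). The median over the members was 1.11 and over all genes 0.09. At the same step, 5 of 5 erythroid and 4 of 5 adipocyte genes were called lower and 2 of 5 macrophage and 2 of 8 T cell genes higher, and their part in these values was not tested. The T cell calls, Cd8b1 and Cd8a, held in 4 and 3 of 12 fits with 1 library left out. The interaction asks whether the HFD difference at 20 weeks differed from that at 8 weeks. None of 9 genes was called (0.297% of all genes), and 1 had an unadjusted p under 0.05 (13.8% of all genes). That gene, Ighg2b, was at −3.23 (SE 1.31, adjusted p 0.321), Jchain at −1.19 (SE 0.80, adjusted p 0.490) and Igkc at −0.86 (SE 0.76, adjusted p 0.608). The comparisons within 8 and 20 weeks share their groups, so their values are not independent of each other.

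**Figure D5:**
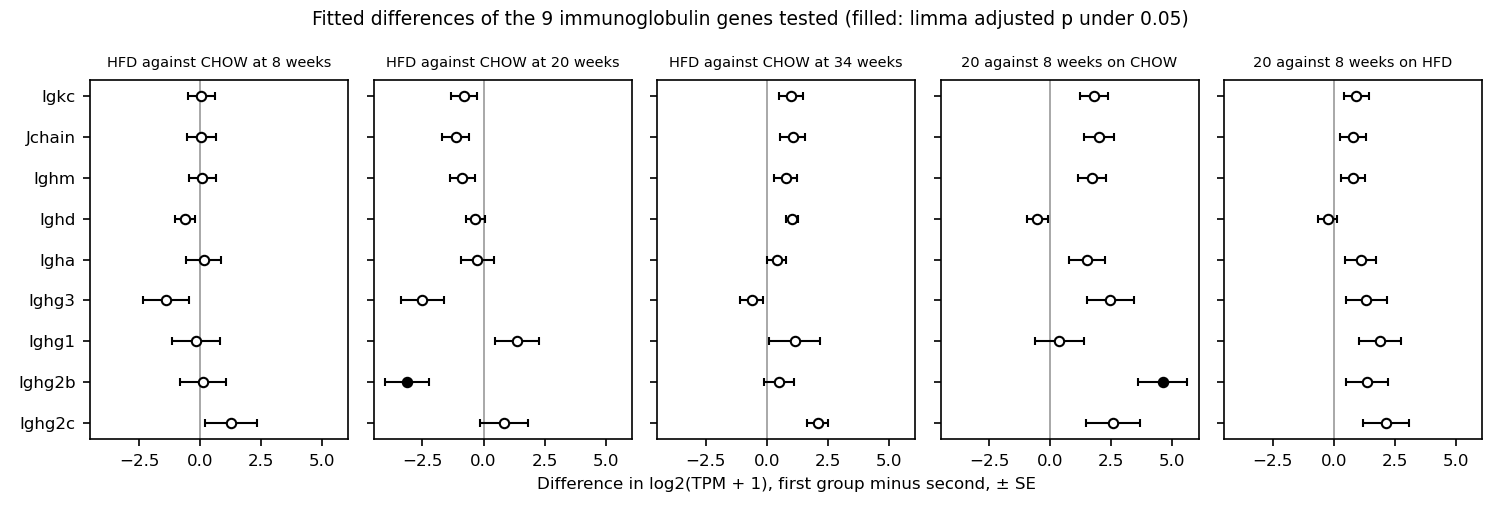
Fitted difference in log2(TPM + 1) ± SE for the 9 genes tested, in 5 comparisons, the first named group minus the second. Filled points passed limma's adjusted p of 0.05, which are Ighg2b at 20 weeks (−3.11) and Ighg2b on CHOW (4.59). Igkc, Jchain and Ighm sit together in each panel, and the point of Ighd is below them in all panels but those of 20 and 34 weeks (difference not tested).

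Lambda constant genes, the alternative to Igkc, were called in the same pair of comparisons as Ighg2b. Their sum was 112, 179, 596, 664 and 657 TPM in the CHOW libraries of 20 weeks and 64.8 to 214 TPM on HFD. At 20 weeks 2 of 3 were called lower on HFD, where 4.99% of all genes were called lower. These were Iglc1 by 1.83 (SE 0.55, adjusted p 0.0323) and Iglc3 by 1.63 (SE 0.54, adjusted p 0.0465). Iglc1 was also called 2.97 higher at 20 than at 8 weeks on CHOW (SE 0.61, adjusted p 0.0300). The calls on diet were lost with no filter and without the libraries with RNA of other tissues, also without HFD replicate 5 alone. Iglc1 also failed with these groups alone and when any of CHOW replicates 3, 4 and 5 and HFD replicates 1 and 4 was left out (adjusted p up to 0.102). Iglc3 was held with 1 library left out only without CHOW replicate 1 or 2 or HFD replicate 3 (up to 0.142). The call over time was lost with no filter, with these groups alone and without CHOW 8 week replicate 1, 2 or 3 or CHOW 20 week replicate 3, 4 or 5 (up to 0.0981). The lambda genes resemble each other, so the split among them is uncertain.

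Of 16 plasma cell and secretion genes, 3 were called higher and 2 lower on HFD at 20 weeks, beside the 14.3% of all genes called there. Those with the largest differences were Sdc1 (1.71, SE 0.25, adjusted p 0.000232), Prdm1 (1.34, SE 0.36, adjusted p 0.0181) and Irf4 (−0.85, SE 0.23, adjusted p 0.0178), all of which other cells also use. Xbp1, the secretory programme's transcription factor, was lower by 0.47 (SE 0.15, adjusted p 0.0405). The Xbp1 call held in 3 of 11 fits with 1 library left out, which left out CHOW replicate 1, HFD replicate 3 and HFD replicate 6 (adjusted p up to 0.103 in the rest), and was lost with no filter or a replicate block. Mzb1 was at −1.03 (SE 0.64, adjusted p 0.289) there and at 2.12 (SE 0.71, adjusted p 0.185) for 20 against 8 weeks on CHOW. None of the 16 was called in that last comparison, at 8 weeks, at 34 weeks or for the interaction. On HFD 3 were higher at 20 than at 8 weeks, where 8.78% of all genes were called. They were Prdm1 (1.87, SE 0.34, adjusted p 0.00158), Ell2 (1.25, SE 0.23, adjusted p 0.00184) and Slamf7 (0.87, SE 0.22, adjusted p 0.0157). Prdm1 at 20 weeks was lost without CHOW replicate 5 (0.0647) and without the libraries with RNA of other tissues (0.0533), Irf4 without CHOW replicate 3 or 4 (up to 0.0615), and Slamf7 with these groups alone (0.0618). The list's median lay between −0.09 and 0.41 in the 6 comparisons.

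Of 15 B cell identity genes tested at 20 weeks, 2 were called, beside the 14.3% of all genes. Cd22, an inhibitory receptor, was higher on HFD by 1.39 (SE 0.29, adjusted p 0.00369) and Bank1, a signalling adaptor, lower by 1.03 (SE 0.25, adjusted p 0.0104). Cd22 was also higher at 20 than at 8 weeks on HFD (1.42, SE 0.28, adjusted p 0.00262). The Bank1 call was lost without the libraries with RNA of other tissues (adjusted p 0.160). Cd79a was the 1 of 14 called at 34 weeks (0.243% of all genes), and the list's median there was 0.67 against 0.10 over all genes.

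Among 9 tested genes of B cell help and homing, Cxcl13, the chemokine that draws B cells into lymphoid clusters of fat, was lower on HFD at 20 weeks by 2.86 (SE 0.76, adjusted p 0.0174), and Il5, a cytokine that maintains B-1 cells, by 2.02 (SE 0.55, adjusted p 0.0199). Of all genes, 14.3% were called between the diets at 20 weeks. Between 8 and 20 weeks, 0.613% were called on CHOW and 8.78% on HFD. Il6 was higher at 20 than at 8 weeks on CHOW (2.57, SE 0.56, adjusted p 0.0405) and on HFD (1.54, SE 0.48, adjusted p 0.0497), and Il10, a cytokine of regulatory cells, was higher on HFD (2.31, SE 0.51, adjusted p 0.00718). Of 7 tested genes of class switching and the germinal centre, Fas was lower on HFD at 20 weeks (by 1.17, SE 0.20, adjusted p 0.000676) and Rgs13 higher at 20 than at 8 weeks on HFD (0.96, SE 0.23, adjusted p 0.0126). Ccl19, 1 of 3 tested genes of lymphoid stroma, was lower on HFD at 20 weeks by 1.41 (SE 0.35, adjusted p 0.0107). Without the libraries with RNA of other tissues, the calls of Cxcl13 (adjusted p 0.136), Il5 (0.0819), Il10 (0.103) and Ccl19 (0.110) were lost, and Il5 also without CHOW replicate 5 (0.0713). Il6 on CHOW was lost with no filter, a replicate block or these groups alone and without CHOW 8 week replicate 1, 2 or 4 or CHOW 20 week replicate 3, 4 or 5 (up to 0.187). Il6 on HFD was held with 1 library left out only without HFD 20 week replicate 2 or 3 (up to 0.103 in the rest) and in 4 of 10 other settings.

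Of 11 tested genes of antibody receptors and their subunits, 2 were called higher and 1 lower on HFD at 20 weeks, beside the 14.3% of all genes called there. Fcer1a and Ms4a2, subunits of the high-affinity IgE receptor of mast cells and basophils, were the higher ones, Fcer1a by 1.54 (SE 0.38, adjusted p 0.0117) and Ms4a2 by 1.11 (SE 0.32, adjusted p 0.0253), while Ighe was listed at 0 in those libraries. Fcgr2b, the inhibitory IgG receptor, was lower by 1.08 (SE 0.31, adjusted p 0.0245). Ms4a2 was higher on HFD at 34 weeks (1.93, SE 0.33, adjusted p 0.0358), where it was the 1 of 10 called (0.243% of all genes). That call held in 2 of 8 other settings and in 3 of 13 fits with 1 library left out, those without CHOW replicate 2, CHOW replicate 4 or HFD replicate 1 (adjusted p up to 0.132 in the rest). At 20 weeks Ms4a2 failed when any of CHOW replicates 3, 4 and 5 and HFD replicate 2 was left out (up to 0.0827), with a pseudocount of 0.1 TPM, quantile scaling or these groups alone, and Fcgr2b when any of CHOW replicates 1 and 2 and HFD replicates 4 and 5 was left out (up to 0.0616) or with these groups alone. From 8 to 20 weeks on HFD, Fcer1a rose by 3.41 (SE 0.37, adjusted p 7.69e-06) and Ms4a2 by 1.71 (SE 0.30, adjusted p 0.00122). Fcer1a was also called for the interaction (2.61, SE 0.56, adjusted p 0.0470), which held in 4 of 10 other settings and in 6 of 21 fits with 1 library left out, those without HFD 8 week replicate 2, 5 or 6, CHOW 20 week replicate 2 or HFD 20 week replicate 4 or 5 (up to 0.152 in the rest).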

How the data were processed

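RNA-seq libraries of the SVF were grouped by diet and weeks from the sample titles. Per the study's methods and the submitters' processing notes, the authors used FastQC, MultiQC and Trimmomatic, quantified transcripts of gencode M10 with Salmon and deposited TPM per gene in 2 tables, each library summing to 1000000. The sources name no tool versions. TPM is relative to the rest of a library, and its precision cannot be stated without counts. Salmon divides reads among similar IgG transcripts. Gene IDs were matched without version suffix to GENCODE M21 (31791 of 32098, with 6 of 10 members at the same version). Values were tested as log2(TPM + 1) in limma 3.58.1 (R 4.3.3, trend, Benjamini-Hochberg), in genes that reached 1 TPM in 4 (8 and 20 weeks) or 6 (34 weeks) libraries, with the libraries of a table in 1 fit. Shares and the Igkc to Cd79a ratio were compared by exact two-sided permutation tests over libraries, adjusted over 20 tests. Permutation p-values of correlations came from scipy 1.17.1. Scripts were tested on simulated data. Named genes were the members, Cd79a, Ms4a1, Mzb1, Xbp1, up to 3 called genes per list and comparison by size of difference, and the 3 genes ranked most like Igkc and Jchain. The members, 13 gene lists and tests were chosen with earlier results of these data known. Alternatives were a pseudocount of 0.1 TPM, no filter or 5 TPM, quantile and median-ratio scaling, sample quality weights, a replicate block, the compared groups alone, and leaving out libraries (each in turn, 3 or 9 with RNA of other tissues, the 9 having Prm1 or Svs5 above 500 TPM or Adipoq above 1000 TPM).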

Additional observations from a re-analysis of the deposited data

Results flagged for a closer look

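Over 80 sets of 4 to 7 libraries (10 genes, shares and ratios by group), 22 values lay apart from the rest of their group by Dixon's criterion, in 12 libraries, where chance picks out about 1 in 20 groups. The criterion was applied to TPM, which is skewed. Several genes stood out in HFD 20 week replicate 3, with Ighm at 6269 TPM (next library 1905), Igkc at 9869 (2954), Jchain at 516 (162) and Igha at 89.7 (39.4). In CHOW 20 week replicate 4, Ighg3 was at 746 TPM (89.2), Igha at 310.2 (36.4) and Ighg2c at 57.3 (11.2). In HFD 8 week replicate 5, Ighg1 was at 3.64 TPM (0.541), Ighg2b at 21.6 (3.37) and Ighg2c at 59.6 (9.61). Ighg1 also stood out in 1 library of other groups. It was at 5.36 TPM in CHOW 8 week replicate 2 (0.105) and 103 in HFD 20 week replicate 6 (13.1). At 34 weeks it was at 104 in CHOW replicate 3 (5.60) and 98.5 in HFD replicate 4 (37.0). Ighe was above 0 in the last pair, at 12.3 and 3.41 TPM. In the CHOW libraries of 8 weeks, Ighg2b reached 60.1 TPM in replicate 3, Ighg2c 1.55 TPM in replicate 4, and Igkc was lowest, at 783 TPM, in replicate 4. The others were Ighd in HFD 20 week replicate 2 (22.8 TPM), Ighg3 in CHOW 34 week replicate 7 (12.7 TPM) and the IgG share of heavy chain TPM in HFD 34 week replicate 6 (7.85%). HFD 20 week replicate 2 also held the most Cd79a of its group, at 36.9 TPM, while its Igkc was at 1043 TPM.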

How the results depend on the processing

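Depth is unknown, so the error of low TPM values cannot be stated, and calls of IgG genes rest on how reads were divided among similar transcripts. Replicate numbers did not mark shared animals in the labels, and not all same-numbered pairs deviated together (correlations −0.10 to 0.40), so they were not treated as pairs. Pairs of HFD 8 and 20 weeks were all above 0 (0.047 to 0.404, 4 of 6 over 0.1), as were those of CHOW and HFD at 8 weeks (0.026 to 0.210). The other sets of pairs also held values below 0. Pairs with different numbers were not computed, so these values cannot show whether same-numbered libraries share a structure. With the replicate block, the count of members called on CHOW for 20 against 8 weeks was 0 (Ighg2b adjusted p 0.0828), the other counts stayed, and at 8 weeks Ighm turned to −0.17, Igkc to −0.21 and Jchain to −0.24. The cause of each change below was not tested.

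For HFD against CHOW at 20 weeks, the count of 1 member became 0 with a pseudocount of 0.1 or no filter, 2 with a filter of 5 TPM, quantile or median-ratio scaling (Ighg2b with Ighg3), and 3 with sample quality weights (with Jchain), and ran from 0 to 2 with 1 library left out. For 20 against 8 weeks on CHOW, the count of 1 became 0 with no filter or with these groups alone, and 4 with weights (Ighg2b, Jchain, Igkc and Ighm), and ran from 0 to 1. At 34 weeks and for the interaction it was 1 with weights (Ighg2c and Ighg2b), and with 1 library left out it ran from 0 to 1 at 34 weeks and for 20 against 8 weeks on HFD (Ighg2c without HFD 8 week replicate 5). Without the 3 libraries with the highest Svs5, Prm1 and Adipoq no count changed. Without all 9 (chosen after seeing the data) the count at 20 weeks was 0 and the other 5 counts stayed. Quantile scaling moved the median log2 difference of all genes for 20 against 8 weeks on HFD from 0.09 to −0.06, for the interaction from 0.18 to −0.02, and for HFD against CHOW at 20 weeks from 0.08 to −0.05. It moved the share of called genes that were higher from 65.1% to 47.1% at 20 weeks, from 69.8% to 40.8% on HFD over time, and from 54.0% to 17.3% for the interaction, where median-ratio scaling gave 57.0%, 58.8% and 34.5%.

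Directions that turned belonged to values that were not called. Ighg1 for 20 against 8 weeks on CHOW turned to −0.10 with weights. The Igha share difference at 8 weeks (0.0104 percentage points) turned to −0.0028 without Ighd and Ighe in the sum and to −0.244 without the 3 libraries. Without the 9 libraries, Ighd turned to 0.39 for the diets at 20 weeks and to 0.35 on HFD over time, Ighg3 to 0.21 at 34 weeks, Ighg2c to 0.70 for the interaction, the Ighm share difference at 20 weeks to −1.63 percentage points, the Igha share difference at 8 weeks to −0.244, and the log2 ratio of Igkc to Cd79a on HFD over time to −0.617. With 1 library left out, log2 differences at 8 weeks ran from −0.13 to 0.21 (Ighm), −0.51 to 0.48 (Ighg1), −0.49 to 1.49 (Ighg2b), −0.22 to 0.49 (Igha), −0.20 to 0.21 (Igkc) and −0.20 to 0.25 (Jchain). They ran from −0.65 to 0.47 for Igha at 20 weeks, from −0.086 to 1.01 for Ighg1 on CHOW over time, and, for the interaction, from −0.066 to 0.51 (Ighd), −0.92 to 0.43 (Ighg2c) and −0.80 to 0.32 (Igha). In percentage points, IgG share differences ran from −2.36 to 0.135 at 8 weeks and −0.446 to 0.678 at 34 weeks, Igha share differences from −0.510 to 0.704 at 8 weeks, −0.974 to 0.315 on CHOW and −0.0145 to 0.803 on HFD over time, and the Ighm share difference at 34 weeks from −0.271 to 1.70. The log2 ratio of Igkc to Cd79a ran from −0.183 to 0.508 at 34 weeks and from −0.0847 to 0.837 on HFD over time.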
